A study of Mus musculus with 17 samples.

Results

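Pleiotrophin and midkine form a small family of secreted growth factors, and the 8 genes described here are those for both ligands, Ptn and Mdk, for the 4 syndecans, Sdc1 to Sdc4, for the receptor tyrosine phosphatase sigma, Ptprs, and for nucleolin, Ncl. The members were chosen by name, and 8 of the 31647 features in the count table belong to them, with 1 feature for each gene. All 8 passed the filter on low counts, but Mdk, Sdc1 and Sdc4 did so only through the infarct zone libraries. The hearts came from 17 wild-type male C57BL/6J mice, examined 5 days after surgery. The study's methods give an age of 8 to 11 weeks at surgery. In 9 mice the left anterior descending coronary artery (LAD) had been ligated permanently to induce a myocardial infarction, and RNA was taken from the dissected infarct zone (IZ). The other 8 mice underwent sham surgery without ligation, and RNA was taken from the left ventricle. No agent was given to either group apart from the anaesthesia and analgesia of the operation.

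Both ligands bind heparin and the sulfated sugar chains of cell surface proteoglycans. They are abundant in the embryo, where they act on the growth of neurites, vessels and mesenchyme, and low in most adult tissues until these are injured. Syndecans are membrane proteins that carry heparan sulfate chains and serve as co-receptors for growth factors and matrix proteins. Ptprs is a phosphatase of the LAR family whose outer part binds heparan and chondroitin sulfate. Nucleolin is mainly a nucleolar protein of ribosome production, and a smaller pool at the cell surface binds both ligands. The levels here are of mRNA, so neither the secreted proteins nor the sugar chains were measured.

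Libraries were made by massive analysis of cDNA ends, a method that reads the 3' end of each polyadenylated transcript and removes PCR duplicates by molecular identifiers. A transcript gives 1 tag whatever its length, so that levels of different genes can be set side by side without division by length. Levels are given as CPM, counts per 1000000 of the library size after scaling by trimmed mean of M values (TMM). Sham libraries held 1820809 to 4257919 counts and IZ libraries 1237675 to 4738307. The labels gave no batch. Infarct zone replicate 1 stood apart with 19.5% of its counts from mitochondrially encoded features, against 4.22% to 6.78% in the other IZ libraries and 22.9% to 32.4% in sham. Infarct zone replicates 2, 3 and 4 were the deepest of their group, with 3394511 to 4738307 counts against 1237675 to 2650935 in the other 6. Whether these totals go with a shared preparation is not given in the sources used here.

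The start regions of the ligand and of the syndecans that changed most are shown first, because they differ in the promoter elements that lie near their start sites. The RefSeq table of start regions (build GRCm38.p6, 250 bases before to 50 bases after each start) held 6 of the 8 genes, and Mdk and Sdc2 were not among them. A search was run for 8 short motifs on both strands, chosen with the sequences in view. General promoter elements were the TATA box as TATAA, the GC box as GGGCGG and the CCAAT box. Sites of regulated factors were AP-1 as TGANTCA, the cyclic AMP response element as TGACGTCA, NF-kappaB as GGGANTTCC, the E-box of bHLH factors as CACGTG and TEAD as CATTCC. Capitals mark the matches, and each sequence is written 5' to 3' along the gene.
Ptn (chr6:36810130-36810429, minus strand): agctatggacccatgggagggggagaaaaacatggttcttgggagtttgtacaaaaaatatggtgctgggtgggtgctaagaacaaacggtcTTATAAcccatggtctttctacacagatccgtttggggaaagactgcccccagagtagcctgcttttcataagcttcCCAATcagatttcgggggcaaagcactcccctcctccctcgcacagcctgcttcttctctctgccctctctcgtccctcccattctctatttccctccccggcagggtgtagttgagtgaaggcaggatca
Sdc1 (chr12:8771146-8771445, plus strand): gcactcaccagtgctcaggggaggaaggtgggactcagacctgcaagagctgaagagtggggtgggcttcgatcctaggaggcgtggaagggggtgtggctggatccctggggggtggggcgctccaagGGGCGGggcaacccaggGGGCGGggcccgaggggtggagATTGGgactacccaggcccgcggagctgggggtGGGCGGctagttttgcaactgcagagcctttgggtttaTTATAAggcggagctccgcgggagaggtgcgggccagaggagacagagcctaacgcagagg
Sdc3 (chr4:130792287-130792586, plus strand): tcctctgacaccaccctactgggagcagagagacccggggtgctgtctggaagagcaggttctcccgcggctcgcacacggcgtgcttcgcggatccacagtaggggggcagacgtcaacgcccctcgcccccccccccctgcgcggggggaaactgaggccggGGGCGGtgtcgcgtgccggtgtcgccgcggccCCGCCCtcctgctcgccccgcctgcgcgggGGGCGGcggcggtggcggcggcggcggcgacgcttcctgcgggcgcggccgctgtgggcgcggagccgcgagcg
Sdc4 (chr2:164443139-164443438, minus strand): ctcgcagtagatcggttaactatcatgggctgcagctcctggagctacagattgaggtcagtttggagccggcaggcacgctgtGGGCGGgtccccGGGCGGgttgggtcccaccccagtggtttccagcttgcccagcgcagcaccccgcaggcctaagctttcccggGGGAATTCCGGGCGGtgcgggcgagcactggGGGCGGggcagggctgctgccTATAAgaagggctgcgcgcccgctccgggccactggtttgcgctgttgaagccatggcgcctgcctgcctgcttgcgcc

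Ptn had TATAA at position -157, counted with the start site as 0, and CCAAT at position -81, and no GC box in this window. The TATAA of Ptn and of Sdc1 also reads as TTATA 1 base upstream, which is the same motif on the other strand. Sdc1 had TATAA at position -10, 3 GC boxes and CCAAT in reverse as ATTGG. Sdc3 had 3 GC boxes and none of the other 7 motifs. Sdc4 had TATAA at position -29, 4 GC boxes and the NF-kappaB letters at position -81, directly followed by a GC box. Of all 32851 start regions in the table, 24.9% held TATAA, 35.7% a GC box, 37.4% CCAAT and 1.68% the NF-kappaB letters. The upstream start region of Ptprs (chr17:56476431-56476730, minus strand) held 3 E-boxes, which 7.15% of all regions held at least once, and a cyclic AMP response element, which 1.79% held. Ncl (chr1:86359406-86359705, minus strand) had 3 GC boxes. AP-1 letters were in none of the members' windows, against 7.81% of all regions, and the TEAD letters, in 14.7% of all regions, were only in the downstream start region of Ptprs. These matches describe letters in a window and were not tested for binding.

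All 8 members had a higher level in the IZ than in sham and passed the test (the quasi-likelihood test of edgeR with Benjamini-Hochberg adjustment, threshold 0.05 over 12301 genes tested). That call was common here, since 36.3% of all genes tested were called higher and 69.5% were called in either direction. The sizes differed widely. Ptn and Mdk rose about equally and most, Sdc1 and Sdc3 followed, Sdc4, Ptprs and Sdc2 rose less, and Ncl lay closest to the bulk of genes. A call with a log2 fold change of at least 1 was made for 5 of the 8, against 19.3% of all genes tested. For 6 of the 8 members every IZ library lay above every sham library, against 16.6% of all genes tested. Because the members were chosen with earlier results known, and Mdk, Sdc1 and Sdc4 passed the filter only through the IZ, these contrasts are descriptions and not tests. The median log2 fold change was 1.56 over the members and 0.05 over all genes tested.

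**Figure D1:**
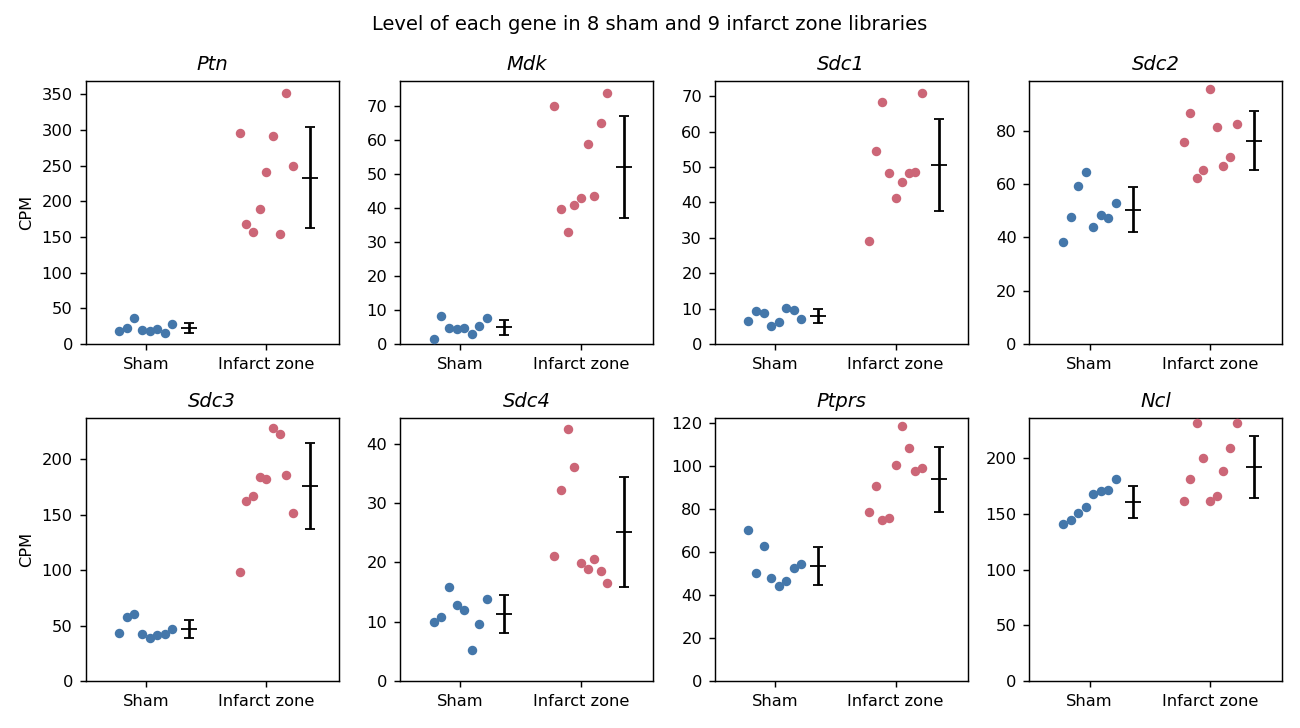
Level of each gene in CPM (linear axis from 0) in the 8 sham (blue) and 9 infarct zone (red) libraries, in the order of their replicate numbers, which carries no meaning. Horizontal marks and bars are the mean and SD of a group; Sdc2 and Ncl are the genes whose groups overlap.

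Ptn (ENSMUSG00000029838, protein coding, minus strand of chr6:36714929-36810220) encodes pleiotrophin, which promotes outgrowth of neurites and vessels. In sham the lowest, median and highest levels were 15.0, 20.7 and 36.4 CPM, and in the IZ 155, 241 and 352 CPM. The groups were far apart, with the lowest IZ library at 4.24 times the highest sham library. The mean level was 22.6 ± 6.66 CPM (SD, n = 8) in sham and 233 ± 70.6 CPM (SD, n = 9) in the IZ, a 10.4-fold rise. The log2 fold change was 3.38 ± 0.20 (SE) (adjusted p = 3.35e-12, edgeR). It lay at the 97.8th percentile of all genes tested. These means rest on 29 to 50 counts per sham library and on 285 to 1209 per IZ library. Among all genes tested the mean level of Ptn moved from the 54.8th percentile in sham to the 96.7th in the IZ.

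Mdk (ENSMUSG00000027239, protein coding, minus strand of chr2:91929805-91932297) encodes midkine, the second member of the family, known for roles in leukocyte migration and tissue repair. It started from a much lower level, at 1.64, 4.7 and 8.14 CPM for the lowest, median and highest sham library. In the IZ the same values were 33.0, 43.4 and 73.7 CPM. Again no library of one group reached the other, and the lowest IZ library was at 4.05 times the highest sham library. From a mean of 4.97 ± 2.20 CPM (SD, n = 8) Mdk reached 51.9 ± 15.0 CPM (SD, n = 9), a 10.3-fold rise. Its log2 fold change of 3.36 ± 0.24 (SE) passed the test (adjusted p = 3.34e-11, edgeR). The sham level was the least precise of all members, since it rests on 3 to 14 counts per library, against 76 to 286 in the IZ. Mdk passed the filter on low counts only through the IZ.

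Because both ligands rose by nearly the same factor, their proportion was compared directly. Of the summed counts of Ptn and Mdk, Ptn took 81.9 ± 7.0% in sham (SD, n = 8) and 81.6 ± 2.62% in the IZ (SD, n = 9). The difference of -0.31 percentage points was smaller than the spread between libraries (exact two-sided permutation of 24310 splits, p = 0.904, adjusted p = 0.904 over 5 shares). Single sham libraries ran from 73.3% to 92.1%, and IZ libraries, which hold more counts of both genes, from 77.2% to 84.9%. The sums behind these shares were 33 to 64 counts in sham and 365 to 1495 counts in the IZ.

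Among the syndecans, Sdc1 and Sdc3 rose most. Sdc1 (ENSMUSG00000020592, protein coding, plus strand of chr12:8771323-8793715), the syndecan of epithelia and plasma cells that appears on fibroblasts and macrophages after injury, had 5.02, 7.97 and 10.3 CPM as lowest, median and highest sham values. Its IZ values were 29.0, 48.3 and 71.0 CPM, with infarct zone replicate 1 the lowest. Every IZ library was above every sham library. The mean went from 7.89 ± 1.90 CPM (SD, n = 8) to 50.6 ± 12.9 CPM (SD, n = 9), and to 53.3 ± 10.8 CPM without infarct zone replicate 1. This was a 6.46-fold rise, a log2 fold change of 2.69 ± 0.19 (SE) (adjusted p = 2.58e-11, edgeR). Of the plasma cell and B cell markers beside it, only Cd79b was abundant enough for the test, with 1.06 ± 0.751 CPM in sham and 4.79 ± 2.36 CPM in the IZ. With at most 4 counts in any sham library, Cd79b passed the filter only through the IZ. Of the untested genes, Mzb1 was lower, at 2.55 CPM in sham and 1.15 CPM in the IZ, and the others had higher means in the IZ. The list of 7 such genes summed to 2.07 to 7.92 CPM in sham (median 5.99) and 5.35 to 73.3 CPM in the IZ (median 8.11). Their part in the level of Sdc1 was not tested.

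Sdc3 (ENSMUSG00000025743, protein coding, plus strand of chr4:130792537-130826319), known best from neurons and a receptor for pleiotrophin in neurite outgrowth, was at 38.3, 42.8 and 60.2 CPM as lowest, median and highest value in sham. In the IZ it was at 98.6, 182 and 228 CPM. The groups did not overlap, and infarct zone replicate 1 was the lowest IZ library here too. The means were 46.5 ± 8.08 CPM (SD, n = 8) and 176 ± 38.7 CPM (SD, n = 9), or 185 ± 27.4 CPM without infarct zone replicate 1. The 3.79-fold rise corresponded to a log2 fold change of 1.92 ± 0.15 (SE) (adjusted p = 1.40e-10, edgeR). An annotated antisense gene, Gm26716, matches the last 500 bases of Sdc3 on the opposite strand over 222 bases. It has no feature of its own here, and the strand setting of the counting is not given in the sources used here, so tags of both genes cannot be told apart in that stretch.

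Sdc4 (ENSMUSG00000017009, protein coding, minus strand of chr2:164424247-164443887), the syndecan of focal adhesions, had 5.15, 11.4 and 15.8 CPM as lowest, median and highest value in sham and 16.6, 20.6 and 42.5 CPM in the IZ. The groups were separate by a narrow margin, since the lowest IZ library stood at 1.05 times the highest sham library. Mean levels were 11.2 ± 3.23 CPM (SD, n = 8) and 25.1 ± 9.31 CPM (SD, n = 9). The log2 fold change was 1.2 ± 0.22 (SE), a 2.30-fold rise (adjusted p = 4.49e-05, edgeR). Within the IZ the libraries fell into separate clusters. The 3 deepest libraries, infarct zone replicates 2, 3 and 4, had 32.3 to 42.5 CPM, and the other 6 had 16.6 to 21.0 CPM. Without those 3 libraries, a choice made after seeing the data, the log2 fold change was 0.80 (adjusted p = 0.000924, edgeR). Depth moves with this split, and its part in the level of Sdc4 was not tested.

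Sdc2 (ENSMUSG00000022261, protein coding, plus strand of chr15:32920723-33034935), the syndecan of mesenchymal cells, rose least of the 4. Its lowest, median and highest levels were 38.3, 48.0 and 64.7 CPM in sham and 62.3, 75.7 and 95.7 CPM in the IZ. Of the 9 IZ libraries, 8 lay above every sham library, and 1 fell below the highest of them. On average Sdc2 had 50.3 ± 8.44 CPM (SD, n = 8) in sham and 76.3 ± 11.1 CPM (SD, n = 9) in the IZ. The log2 fold change of 0.60 ± 0.12 (SE), a 1.52-fold rise, passed the test (adjusted p = 8.32e-05, edgeR).

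The unequal rises changed the make-up of the syndecan mRNA, which was tested on the share of each gene in the summed counts of Sdc1 to Sdc4. Such shares do not depend on the scaling between libraries, and they rest on 143 to 282 counts per sham library and on 599 to 2415 per IZ library. In sham, Sdc2 and Sdc3 together made up most of the counts, with 43.4 ± 4.35% and 40.1 ± 3.77% (SD, n = 8). In the IZ Sdc3 led with 53.1 ± 6.39% and Sdc2 fell to 23.7 ± 5.11% (SD, n = 9). The share of Sdc2 was lower by -19.7 percentage points (exact permutation p = 8.23e-05, adjusted p = 0.000206 over 5 shares), and in 9 of 9 IZ libraries it was below every sham library. That of Sdc3 was higher by 13 percentage points (exact permutation p = 0.000288, adjusted p = 0.000480), with 8 of 9 IZ libraries above every sham library. The exception was infarct zone replicate 1, with 43.9% of Sdc3 and, at 33.8%, the highest IZ share of Sdc2.

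Sdc1 went from 6.89 ± 1.82% in sham (SD, n = 8) to 15.4 ± 3.52% in the IZ (SD, n = 9), higher by 8.53 percentage points (exact permutation p = 4.11e-05, adjusted p = 0.000206). All 9 IZ libraries were above every sham library. For Sdc4 the share was 9.63 ± 2.23% and 7.76 ± 2.82%, a difference of -1.87 percentage points that did not pass the test (exact permutation p = 0.15, adjusted p = 0.188). Here again the 3 deepest IZ libraries, at 9.61% to 12.5%, lay above the other 6, at 5.05% to 9.37%. When those 3 were left out, the share of Sdc4 in the IZ was 6.15 ± 1.61% (SD, n = 6), a difference of -3.48 percentage points from sham (exact permutation p = 0.0133, adjusted p = 0.0167), so that the call for Sdc4 rests on which libraries are used. The shares of Sdc1, Sdc2 and Sdc3 passed the test with and without them.

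**Figure D2:**
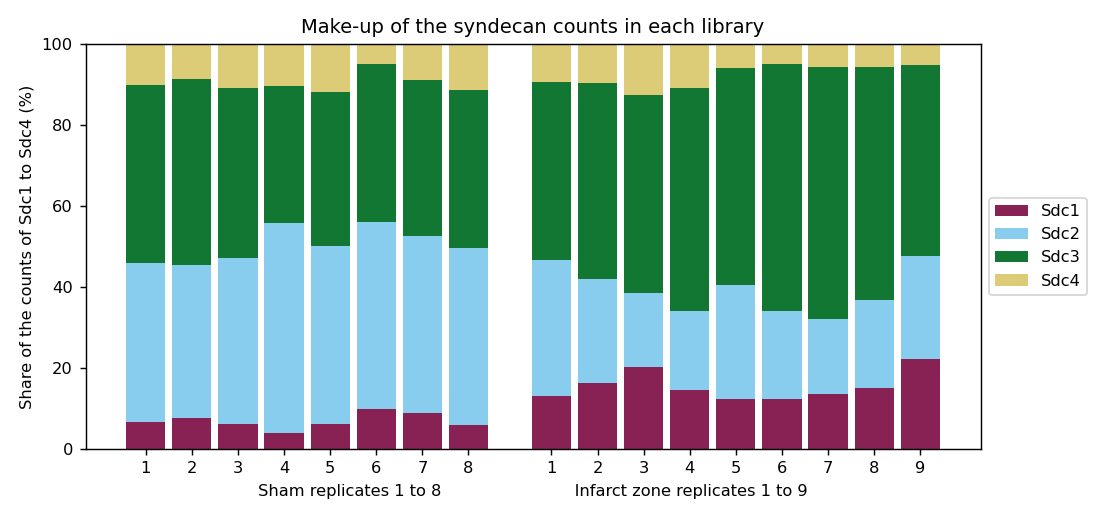
Share of Sdc1, Sdc2, Sdc3 and Sdc4 in the summed counts of the 4 syndecan genes (percent, stacked to 100%) in each sham and infarct zone library. In sham Sdc2 takes 37.8% to 51.8% and Sdc1 4.02% to 9.79%, and in the infarct zone Sdc2 takes 18.3% to 33.8% and Sdc1 12.2% to 22.1%.

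Ptprs (ENSMUSG00000013236, protein coding, minus strand of chr17:56412426-56476483) is the phosphatase receptor of the group. Its lowest, median and highest levels were 44.0, 51.5 and 70.1 CPM in sham and 74.7, 97.6 and 119 CPM in the IZ. The ranges did not overlap, although the lowest IZ library exceeded the highest sham library by a factor of only 1.07. The 1.75-fold rise was a log2 fold change of 0.80 ± 0.12 (SE) (adjusted p = 3.09e-06, edgeR). It lay at the 76.1st percentile of all genes tested, between those of Sdc4 at the 84.1st and Sdc2 at the 70.2nd.

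Ncl (ENSMUSG00000026234, protein coding, minus strand of chr1:86344719-86359400) was the most abundant member in sham and changed least. It had 141, 162 and 181 CPM as lowest, median and highest value in sham and 161, 189 and 232 CPM in the IZ. The groups overlapped, and 6 of 9 IZ libraries were above every sham library. Mean levels of 160 ± 14.4 CPM (SD, n = 8) and 192 ± 27.8 CPM (SD, n = 9) gave a 1.2-fold rise, a log2 fold change of 0.26 ± 0.11 (SE) (adjusted p = 0.0350, edgeR). This call was near the threshold. It was lost without sham replicate 1, 2, 3 or 4 and without infarct zone replicate 3 or 9, each left out alone, with adjusted p values from 0.0502 to 0.0791 in edgeR, and with no filter on low counts (adjusted p = 0.0526). It was also lost without the 3 deepest IZ libraries (log2 fold change 0.25, adjusted p = 0.0943, edgeR). The adjusted p ran from 1.06e-09 to 0.119 over 25 alternative analyses. Ncl hosts small nucleolar RNA genes in its introns, of which Snord82 had a feature with 7 counts in all 17 libraries.

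The order of the mean levels changed between the groups. In sham Ncl stood alone at the top, followed by Ptprs, Sdc2 and Sdc3, whose ranges of mean ± SD overlapped, then Ptn, then Sdc4, Sdc1 and Mdk, each of which overlapped with its neighbour in that order. In the IZ Ptn led, and Ptn, Ncl and Sdc3 overlapped with their neighbours. Ptprs and Sdc2, Sdc2 and Mdk, and Mdk and Sdc1 did likewise, and Sdc4 came last, separate from Sdc1. Mdk thus moved from the 11.7th to the 79.8th percentile of mean level among the genes tested and Sdc1 from the 21.4th to the 79.3rd, while Sdc4 moved from the 31.6th to the 58.4th.

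How far genes differ in these hearts depends on how libraries are scaled. With total counts alone in place of TMM, the median log2 fold change of all genes tested shifted by 1.09 and 74.8% of them were called higher. On that scale too all 8 members were called higher, with log2 fold changes from 1.35 for Ncl to 4.43 for Ptn. Relative to the median of all genes under TMM, Ptn lay 3.33 higher, Mdk 3.31, Sdc1 2.64, Sdc3 1.87, Sdc4 1.15, Ptprs 0.75, Sdc2 0.55 and Ncl 0.21 higher on the log2 scale. Except for Ncl, each member kept its call in 25 of 25 alternative analyses.

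**Figure D3:**
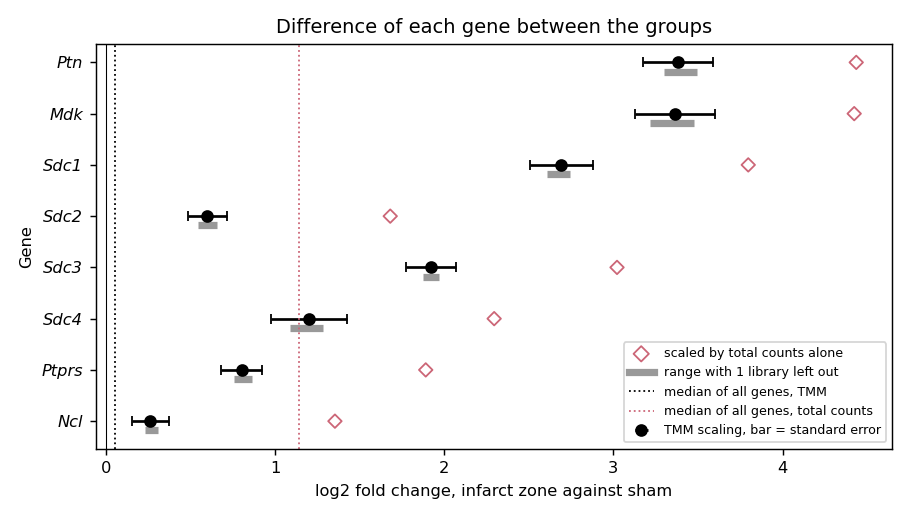
Log2 fold change of each gene, infarct zone against sham. Black points and bars are the estimate under TMM scaling and its standard error, grey bars the range when each of the 17 libraries is left out in turn, and open diamonds the estimate when libraries are scaled by total counts alone; dotted lines are the medians of all genes under either scaling, 0.05 and 1.14.

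The cell content of the samples differed between the groups along with these genes. In bulk tissue, fewer cells of a type and less RNA per cell cannot be told apart. Over all 12301 genes tested, 4470 were called higher and 4074 lower under TMM. All 8 cardiomyocyte markers were called lower in the IZ under TMM, from Tnni3 at -4.19 ± 0.46 (SE) to Actc1 at -2.12 ± 0.34 (SE), with a median log2 fold change of -3.72. Their summed level ran from 67415 to 81301 CPM in sham and from 2937 to 28455 CPM in the IZ. Infarct zone replicate 1 had 28455 CPM, and the other 8 IZ libraries had at most 6817 CPM. Of 8 fibroblast markers, 7 were called higher (median 2.58), led by Col1a1 at 4.0 ± 0.24 (SE), with Dcn lowest at 0.04 ± 0.15 (SE). All 7 macrophage markers were called higher (median 3.19), from Csf1r at 2.31 ± 0.13 (SE) to Cd68 at 4.09 ± 0.21 (SE). Fibroblast markers summed to 1541 to 2981 CPM in sham and 12685 to 20695 CPM in the IZ, and macrophage markers to 168 to 222 CPM and 941 to 1799 CPM. The part of these cells in the levels of the 8 members was not tested.

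Other cell types moved less evenly. Of 7 endothelial markers 2 were called lower under TMM and none higher, with Kdr lowest at -1.70 ± 0.22 (SE) and Emcn highest at -0.04 ± 0.15 (SE), and with total counts alone 6 were called higher and 1 lower and their median turned to 0.85. Over all genes tested, 74.8% were called higher with total counts alone. Smooth muscle and pericyte markers split, with Cnn1 higher by 2.58 ± 0.30 (SE), Abcc9 at -2.72 ± 0.21 (SE), and 2 called higher and 4 lower of 7, a balance that turned to 3 higher and 2 lower with total counts alone. Neutrophil markers were scarce, with sums of 4.62 to 11.7 CPM in sham and 15.9 to 219 CPM in the IZ. Of the 4 of 6 that passed the filter, S100a9 had 2.95 ± 1.92 and 22.4 ± 20.9 CPM and Csf3r 0.539 ± 0.676 and 20.1 ± 16 CPM in sham and IZ. Cnn1, S100a9 and Csf3r, with at most 24, 11 and 3 counts in any sham library, met the filter only with the IZ libraries. The defining marker Ly6g was at 0 in all 8 sham libraries and in 6 of 9 IZ libraries, with at most 1 count in the others. Epicardial markers summed to 7.81 to 20.4 CPM in sham and 10.5 to 134 CPM in the IZ, with Msln called higher (2.22 ± 0.64, SE) and Wt1 at 0.03 ± 0.31 (SE). Of 4 Schwann cell markers tested, Mbp was highest at 1.07 ± 0.28 (SE), on at most 8 counts per sham library, too few to meet the filter without the IZ. No T cell marker passed the filter, and that list summed to at most 2.59 CPM in sham and to 4.34 to 17.8 CPM in the IZ. Every IZ sum lay above every sham sum, on at most 3 counts of each of the 6 genes per sham library. Of the single genes tested, 16.6% were separate in this way.

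Inside the IZ the members were compared with each other across its 9 libraries, as 13 relations of the ligands with each other and with the 6 receptors. No relation passed an adjusted p of 0.05 over the 13 (exact permutation of 362880 pairings). The 2 with the smallest exact p were those of Mdk with Sdc4 and of Ptn with Mdk. Libraries with more Ptn had more Mdk, with r = 0.834 (exact p = 0.0111, adjusted p = 0.0720) and rho = 0.717 (exact p = 0.0369, adjusted p = 0.240), n = 9. Without the 2 libraries farthest from the median of Ptn, r was 0.787 (exact p = 0.0437, adjusted p = 0.189). Within the 6 shallower libraries it was 0.673 (exact p = 0.135, adjusted p = 0.879), and the 3 deepest, too few for a value of their own, lay at the low end of Mdk with 33.0 to 40.8 CPM, against 43.0 to 73.7 CPM in the other 6. Libraries with more Mdk had less Sdc4, with r = -0.808 (exact p = 0.00898, adjusted p = 0.0720) and rho = -0.800 (exact p = 0.0138, adjusted p = 0.180), n = 9. Without infarct zone replicate 1, r was -0.838 (exact p = 0.0164, adjusted p = 0.123) and rho was -0.952 (exact p = 0.00114, adjusted p = 0.0148), so that the rank correlation passed the threshold without this library. These values span the clusters of Sdc4, a split that moves with depth. Within the 6 shallower libraries r of Sdc4 was -0.514 with Mdk (exact p = 0.292, adjusted p = 0.879) and -0.274 with Ptn (exact p = 0.571, adjusted p = 0.879). Neither these values nor that of Ptn with Mdk passed the test within the 6 libraries.

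**Figure D4:**
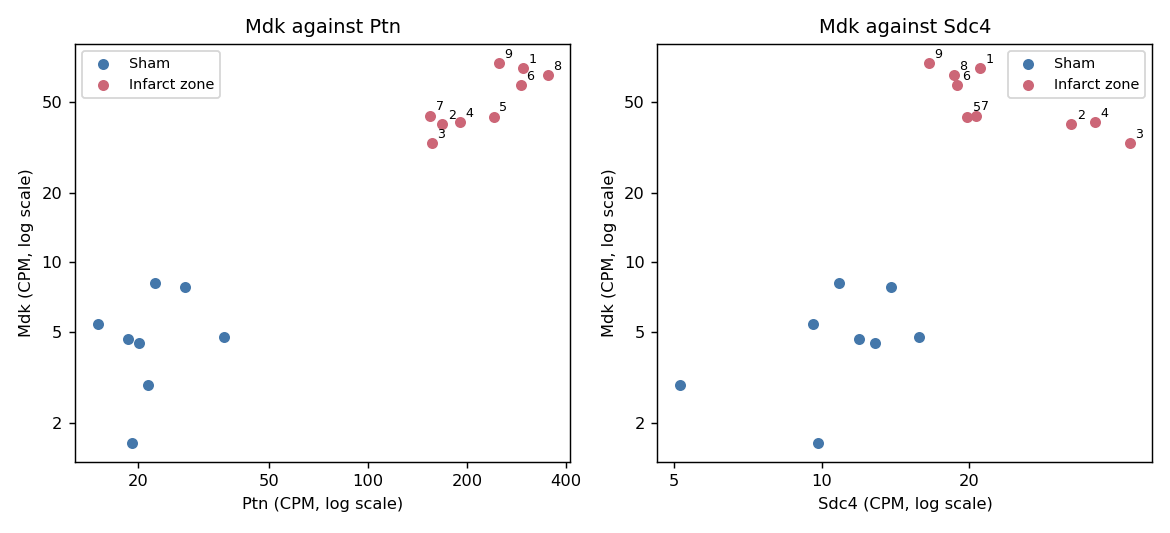
Mdk against Ptn (left) and against Sdc4 (right), in CPM on log axes, for the sham (blue) and infarct zone (red) libraries, the latter marked by replicate number. Infarct zone replicates 2, 3 and 4, the deepest, are the 3 libraries with Sdc4 at 32.3 to 42.5 CPM, at the right edge of the right panel.

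The same libraries were used to set each member against the summed cardiomyocyte markers. None of these 8 relations passed an adjusted p of 0.05 (exact permutation). Sdc3 was lower in the libraries with more cardiomyocyte marker RNA, with r = -0.819 (exact p = 0.0279, adjusted p = 0.162) and rho = -0.467 (exact p = 0.212, adjusted p = 0.340), n = 9. That value rests on infarct zone replicate 1, since without this library r was -0.269. Within the 6 shallower libraries, which include that replicate, r was -0.956 for Sdc3 (exact p = 0.00972, adjusted p = 0.0778) and -0.912 for Ptprs (exact p = 0.0292, adjusted p = 0.117), against -0.192 for Ptprs over all 9 (exact p = 0.663, adjusted p = 0.663). Both ligands pointed the other way, with r = 0.581 for Ptn (exact p = 0.0721, adjusted p = 0.162) and 0.613 for Mdk (exact p = 0.0480, adjusted p = 0.162). In the same 6 libraries r was 0.437 for Ptn (exact p = 0.322, adjusted p = 0.589) and 0.496 for Mdk (exact p = 0.368, adjusted p = 0.589).

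Beside the 6 receptors, the ligands are known to bind or act through several other surface proteins. Of 11 such genes in the table, 8 passed the filter. Called higher were 7 of these 8 and lower none, against 36.3% of all genes tested called higher, with a median log2 fold change of 1.64. The integrin genes spanned this range: Itgb3 had 2.74 ± 0.35 (SE), Itga4 2.45 ± 0.21 (SE), Itgav 1.73 ± 0.14 (SE), Itgb1 0.94 ± 0.11 (SE) and Itga6 0.34 ± 0.14 (SE) on the log2 scale. Itgb3 and Itgav, which together form the vitronectin receptor, had 10.9 and 93.9 CPM in the IZ, so that Itgb3 was the scarcer subunit. Itgb3 and Itga4, on at most 5 and 11 counts per sham library, passed the filter only through the IZ. Lrp1, an endocytic receptor for midkine, rose from 114 ± 21.3 CPM to 411 ± 102 CPM, by 1.85 ± 0.16 (SE), and Notch2 by 1.56 ± 0.22 (SE). Nrp1, a co-receptor of semaphorins and VEGF, had 151 ± 28.4 CPM in sham and 140 ± 39.3 CPM in the IZ (log2 fold change -0.11 ± 0.15, SE, adjusted p = 0.533, edgeR), and it was called higher with total counts alone, as were all 8. In that setting 74.8% of all genes tested were called higher. Ptprz1, the main phosphatase receptor for pleiotrophin in the brain, was too low for the test, at 1.78 ± 1.19 CPM in sham and 1.02 ± 1.03 CPM in the IZ. Cspg5 was likewise low, at 1.56 ± 1.18 and 1.94 ± 1.41 CPM, and Ltk had no count in any of the 17 libraries, which allows up to 3 counts in each. Alk, the other receptor kinase proposed for these ligands, had no feature matched to its name here and was not analysed.

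The glypicans, the other family of cell surface heparan sulfate proteoglycans, did not move as a group. Of 4 tested, Gpc6 was highest at 1.94 ± 0.17 (SE) and 2 were called higher, while Gpc1 fell from 543 ± 51.1 CPM to 91.4 ± 46.6 CPM (log2 fold change -2.57 ± 0.21, SE) and was below every sham library in 9 of 9 IZ libraries. In sham Gpc1 thus had a higher level than any syndecan, and in the IZ a lower one than Sdc3. With total counts alone 3 of the 4 were called higher and 1 lower. Of all genes tested, 36.3% were called higher under TMM and 74.8% with total counts alone.

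For the lists that follow, 36.3% of all genes tested were called higher under TMM and 74.8% with total counts alone. Some genes called higher in these lists, such as Hs6st2, passed the filter on low counts only through the IZ. Enzymes that build, sulfate or trim heparan sulfate chains were called higher for 12 and lower for 2 of 20 tested under TMM, with a median of 0.68, and for 19 and 1 with total counts alone. Hs6st2, a sulfotransferase that adds 6-O-sulfate, was highest, going from 1.10 ± 0.580 CPM to 26.1 ± 9.79 CPM with a log2 fold change of 4.48 ± 0.32 (SE), on at most 4 counts per sham library. Extl1, a glycosyltransferase of chain elongation, was lowest at -2.66 ± 0.27 (SE). Syndecan sheddases and partners of the syndecan tails were called higher for 8 and lower for 1 of 13 tested, and for 13 and 0 with total counts alone. Mmp14, a membrane-bound protease that can shed syndecans, led them with a rise from 19.0 ± 7.75 CPM to 217 ± 63.6 CPM (3.54 ± 0.22, SE), and Rock1, a kinase downstream of RhoA, was lowest at -0.56 ± 0.10 (SE). Leaving out sham replicate 3 or infarct zone replicate 1 alone raised the number called lower from 1 to 2. The relatives and adaptors of Ptprs, the LAR phosphatases and liprins, were called higher for 4 of 6 tested and lower for none, from Ppfibp2 at -0.37 ± 0.23 (SE) to Ptprf, the LAR phosphatase itself, at 2.67 ± 0.19 (SE).

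For Ncl the comparison list was 19 genes of nucleolar ribosome production, all tested. Of these 10 were called higher and 5 lower under TMM, against 36.3% of all genes tested called higher, with a median of 0.39. With total counts alone they were 16 and 0, against 74.8%, so that whether genes of this list were called lower depends on the scaling. Npm1, the nucleolar chaperone nucleophosmin, was highest at 0.97 ± 0.12 (SE), and Polr1b, the second largest subunit of RNA polymerase I, lowest at -1.10 ± 0.19 (SE). The log2 fold change of Ncl, 0.26, lay below the median of this list.

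As a last description, each member was set against the 9355 genes tested with a mean of at least 10 CPM, by Pearson's r of the deviations from the group means over the 17 libraries, which leaves out the difference between the groups. Libraries share depth and cell content, and the highest of so many values are high by selection, so no p is given. Closest to Ptn were Ramp2 (r = 0.838), Gramd3, Abhd17a, Id1 and Aspn (0.803). Of these, Aspn, a small leucine-rich proteoglycan, was also higher in the IZ, by 3.04 on the log2 scale, and Id1 was lower at -1.14. Closest to Mdk were Rpp25l (0.814), Aspscr1, Sfrp2, Mfap3 and Atg16l1 (0.706), and Sfrp2, a secreted Wnt modulator, rose from 20.6 to 238 CPM. The highest values were those of Sdc1 with Tmem120a (0.943) and of Sdc3 with Stab1 (0.941). Sdc1 was next closest to Manf (0.851) and G6pdx (0.835), and Sdc3 to Tram1 (0.913) and Lrp1 (0.906), the receptor described above. For Sdc2 the closest were Herpud2 (0.752), Timp3 and Tsen15, for Sdc4 Hipk1 (0.835), Pcbp1 and Zdhhc20, for Ptprs Fam221b (0.825), Dbpht2 and Pnpla7, and for Ncl H2afz (0.813), Ms4a6c and Emg1.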

How the data were processed

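Transcripts of 17 mouse hearts, 8 sham left ventricles and 9 infarct zones, were sequenced at their 3' ends with molecular identifiers. The authors trimmed reads with Cutadapt, mapped them to mm10 and counted them per gene with HTSeq, and the submitters' processing notes also list bcl2fastq, Bowtie2 and DESeq2. The deposited values are raw counts without normalization. The annotation release, the strand setting and the treatment of multi-mapping reads are not given in the sources used here. Replicates are separate samples in the labels.

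The members and gene lists were chosen with earlier results of these data known. The test was that of edgeR 4.0.16 under R 4.3.3 (filterByExpr with a minimum of 10 counts, TMM scaling with factors 0.613 to 1.54, two-sided quasi-likelihood F-test, Benjamini-Hochberg adjustment, threshold 0.05). SE was derived from the F statistic, and log2 CPM used a prior count of 1. Shares and relations were tested by exact two-sided permutation. Named are the 8 members, the highest and lowest tested gene of each list, the other ligand receptors and the closest genes by correlation. The untested markers Ly6g and Mzb1 are named in addition. Gene spans are those of GENCODE on GRCm38, where 31521 features matched. Near-identical 3' ends were sought with BLAST 2.17.0 (last 500 bases, at least 100 bases at 95% identity). The fit was tested on simulated data. No 2 libraries were copies (chi-square per degree of freedom 2.41 to 252). Alternatives were other scalings, DESeq2 1.42.0, other filters, thinning to 1237675 counts, the replicate number as a block and leaving out each library. Leaving out the 3 deepest infarct zone libraries was added after seeing the data. Protein sequences were not used here. The result of 1 gene that met the naming rule is left out.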

Additional observations from a re-analysis of the deposited data

Results flagged for a closer look

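The share of Sdc4 among the 4 syndecans in sham replicate 6 stood apart from the other 7 sham libraries. It was 4.90%, and its gap to the next library was 0.539 of the whole range of the group, above the critical value of 0.526 for 8 libraries (Dixon's ratio). That share rests on 7 counts of Sdc4 in a sum of 143. In all, 26 groups of values were examined in this way, 8 levels and 5 shares in each of the groups, and chance gives such a result in about 1 of 20 groups.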

How the results depend on the processing

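Over 25 alternative analyses for each gene (8 other settings and 17 with 1 library left out), Ptn, Mdk, Sdc1, Sdc2, Sdc3, Sdc4 and Ptprs kept their direction and their call. Ncl kept its direction in all and its call in 17 of 25, and 7 to 8 members were called when libraries were left out in turn. The median of all genes shifted from the main value by 1.09 with total counts alone, 0.11 with upper quartile scaling, 0.19 with no filter on low counts and -0.25 in the Wald test of DESeq2. Genes called higher and lower numbered 4470 and 4074, against 9203 and 1524 with total counts alone and 2747 and 2492 at a minimum mean of 50 counts, where fewer genes were tested. With total counts alone the median of the endothelial markers turned to 0.85 and that of the smooth muscle and pericyte markers to 0.16. That of the Schwann cell markers turned to -0.86 in the Wald test of DESeq2 and to -0.79 with no filter, where more of its genes were tested. The epicardial median, over 2 genes, turned to -0.29 without infarct zone replicate 2 (range -0.29 to 1.24 with 1 library left out) and to -0.35 without the 3 deepest infarct zone libraries, where fewer genes of that list passed the filter. Leaving out those 3 libraries moved the difference of the Sdc4 share from -1.87 to -3.48 percentage points and past the threshold. The cause was not tested. When libraries were left out in turn, the differences ran from 7.69 to 8.94 percentage points for Sdc1, from -20.9 to -18.5 for Sdc2, from 11.9 to 14.2 for Sdc3, from -2.55 to -1.53 for Sdc4 and from -1.53 to 1.15 for Ptn among both ligands, each on the same side of the threshold. No Pearson's r among the relations passed an adjusted p of 0.05 under any alternative run, and of the rank correlations only that of Mdk with Sdc4 did, without infarct zone replicate 1 (rho = -0.952, adjusted p = 0.0148 by exact permutation).

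The replicate numbers are shared by both groups, but same-numbered libraries did not deviate together (r from -0.22 to 0.13, and 1 sham library correlated best with its own number), so they share only a number. With the number as a replicate block, 7 members were called, with Ncl at a log2 fold change of 0.22 (adjusted p = 0.119, edgeR). The shares under the block differed by 7.69 (Sdc1), -19.9 (Sdc2), 13.8 (Sdc3), -1.54 (Sdc4) and 0.24 percentage points (Ptn), with no call changed. Depth limits Mdk most, with 3 to 14 counts per sham library.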
